A study of Homo sapiens with 9 samples.

Results

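The Hippo pathway genes examined here were 10 of 19970 protein-coding genes: the transcriptional coactivators YAP1 and WWTR1, the DNA-binding factors TEAD1, TEAD2, TEAD3 and TEAD4, the kinases STK3, LATS1 and LATS2, and the upstream scaffold gene NF2. They were taken by name. Each was examined over its RefSeq gene (GRCh38) with 50 kb on both sides, called its locus. The cells were SK-N-MC, an Ewing sarcoma line driven by the EWSR1::FLI1 fusion. Open chromatin was mapped with ATAC-seq, which relies on a transposase that inserts adapters where DNA is not wrapped tightly. The cells carried a doxycycline-inducible short hairpin RNA and all received 100 ng/ml doxycycline for 48 h. The groups were shCHD4#1 and shCHD4#2, labelled as CHD4 knockdown, and shScramble, a non-targeting hairpin whose genotype is labelled wildtype. Each group had 3 biological replicates, 9 samples in all. For each group the authors deposited 1 list of open regions. Its name is that of a tool that combines replicates, while it is filed with the sample labelled replicate 1. It is taken here as the combined list; whether it holds 3 libraries or 1 is not settled by the sources used here. No difference between groups could therefore be set against a spread between replicates, and none was tested. Read depth is unknown. The comparison asks where open regions differ once CHD4, a remodelling enzyme that forms part of NuRD, is targeted.

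In the Hippo pathway the kinases MST1 and MST2 (MST2 is the product of STK3) activate LATS1 and LATS2, which phosphorylate YAP and its paralogue TAZ, the product of WWTR1. Phosphorylated YAP and TAZ are held in the cytoplasm or degraded; without that mark they enter the nucleus and act through TEAD factors, which recognise GGAATG. Merlin, the product of NF2, promotes the kinase cascade, and LATS2 is itself a known target of YAP and TEAD, which makes a feedback loop. In Ewing sarcoma the fusion has been reported to oppose the YAP and TEAD programme. The fusion keeps the ETS domain of FLI1, which recognises a GGAA core.

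The RefSeq promoter table (GRCh38.p14) held a sequence for 7 of the 10 genes, running from 250 bases before the start to 50 bases after it. The promoters of 4 of them are shown because they carry the contrasts described further on. YAP1 (chr11:102110197-102110496, plus strand) and LATS2 (chr13:21061537-21061836, minus strand) hold the TEAD letters. NF2 (chr22:29603383-29603682, plus strand) lies under the best-ranked regions of all 10 loci, and WWTR1 (chr3:149703224-149703523, minus strand) is the start with no region in any list. Capitals mark each GGAA or TTCC and each GGAATG or CATTCC, the same motif on the other strand. GGAATG contains GGAA, so these matches overlap.
YAP1: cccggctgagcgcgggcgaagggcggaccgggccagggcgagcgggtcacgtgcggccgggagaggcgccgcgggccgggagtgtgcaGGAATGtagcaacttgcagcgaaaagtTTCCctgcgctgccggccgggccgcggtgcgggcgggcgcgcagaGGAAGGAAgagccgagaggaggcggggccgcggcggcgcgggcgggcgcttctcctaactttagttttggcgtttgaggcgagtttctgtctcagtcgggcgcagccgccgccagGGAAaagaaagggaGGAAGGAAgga
LATS2: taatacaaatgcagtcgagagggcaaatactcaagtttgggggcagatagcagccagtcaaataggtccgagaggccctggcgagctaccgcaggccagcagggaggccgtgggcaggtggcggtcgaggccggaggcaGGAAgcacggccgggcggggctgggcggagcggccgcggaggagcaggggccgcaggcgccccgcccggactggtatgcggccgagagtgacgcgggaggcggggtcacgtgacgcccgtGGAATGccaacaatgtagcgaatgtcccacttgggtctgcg
NF2: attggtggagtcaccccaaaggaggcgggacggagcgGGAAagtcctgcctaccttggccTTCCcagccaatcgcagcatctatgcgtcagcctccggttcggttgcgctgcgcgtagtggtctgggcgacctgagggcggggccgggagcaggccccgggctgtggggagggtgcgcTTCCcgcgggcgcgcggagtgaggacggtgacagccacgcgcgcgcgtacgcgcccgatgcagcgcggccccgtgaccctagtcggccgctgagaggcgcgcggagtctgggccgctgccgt
WWTR1: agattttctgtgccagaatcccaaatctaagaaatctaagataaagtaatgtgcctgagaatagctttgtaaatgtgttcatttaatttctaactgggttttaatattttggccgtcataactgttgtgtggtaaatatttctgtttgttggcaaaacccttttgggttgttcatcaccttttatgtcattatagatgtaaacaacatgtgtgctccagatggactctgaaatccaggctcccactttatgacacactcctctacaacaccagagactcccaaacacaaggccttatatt

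GGAATG on either strand was found in 2 of the 7 promoters, once in YAP1 (162 bases before the start) and once in LATS2 (9 bases after the start), against 11.7% of 15811 protein-coding promoters of this length. A GGAA core on either strand was found in 6 of 7, with the exception of WWTR1, and in 95.1% of all promoters. The doubled core GGAAGGAA occurred only in YAP1 among the 7, at 2 places, and in 3.55% of all promoters. These counts describe letters in a window and not bound sites. CpG content differed widely among the 7 promoters: TEAD3 had 44 CpG dinucleotides, YAP1 40, NF2 39, LATS2 29, TEAD2 19, LATS1 3 and WWTR1 1, against a median of 22 over all promoters. The table gives 1 start per gene. For WWTR1 and LATS1 this start lies inside the gene, and starts of their other transcripts were not used here.

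Over the 10 loci, 2570 kb in all, 182 regions were listed with shCHD4#1, 130 with shCHD4#2 and 162 with shScramble. These are 7.08, 5.06 and 6.30 regions per 100 kb. The 2 knockdown lists thus lay on opposite sides of the control list, with 1.12 times its region number for shCHD4#1 and 0.802 times for shCHD4#2. Both ratios were below those of the whole lists, in which shCHD4#1 held 1.43 and shCHD4#2 0.970 times as many regions as shScramble (122456, 82824 and 85359 regions used). In bases, 321 kb was covered with shCHD4#1, 179 kb with shCHD4#2 and 268 kb with shScramble, or 1.20 and 0.667 times the control, against 1.41 and 0.730 times over the whole lists. The shCHD4#1 ratio depended on list length: when each list was shortened to its best 82824 regions, the loci held 134, 130 and 151 regions, and both ratios were below 1 (0.887 and 0.861). Among regions to which the authors gave a p of at most 0.05, 21, 25 and 23 remained, and the hairpins changed sides (0.913 and 1.09 times shScramble). Over the whole lists these ratios were 1.36 and 1.02.

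Gene by gene, both knockdown lists exceeded shScramble in region number at TEAD1 and TEAD4, and both were below it at TEAD2, TEAD3, LATS1 and LATS2. YAP1, WWTR1, STK3 and NF2 had more with shCHD4#1 and fewer with shCHD4#2. So 2 of 10 had more with both, against 35.3% of all protein-coding genes, and 4 of 10 had fewer with both, against 12.0%. The mixed pattern of the other 4 was found at 23.0% of genes. Covered bases did not all follow these directions. At TEAD2, TEAD3, LATS1 and LATS2 they were 1.03, 1.21, 1.19 and 1.00 times those of shScramble with shCHD4#1. With shCHD4#2 they were 0.767, 0.887, 0.571 and 0.523 times those of shScramble. TEAD1 had 1.20 times the bases with shCHD4#1 and 0.662 times with shCHD4#2, and TEAD4 had 1.00 times with each. The shCHD4#1 list is the longest, and 71.1% of all genes had more regions with shCHD4#1 and 14.6% had fewer, against 6 and 4 of the 10. With shCHD4#2, 38.2% of all genes had more and 41.6% had fewer, against 2 and 8 of the 10. With 1 added to each number, the log2 ratio of region numbers had a median of 0.14 over the 10 genes and 0.36 over all genes for shCHD4#1, and -0.31 and 0 for shCHD4#2. Both hairpins are set against the same shScramble list, and windows of neighbouring genes share regions. The 10 loci also held more regions, with a shScramble median of 18 against 7 over all genes. Numbers equal to shScramble occurred at 0 of the 10, and at 2859 (shCHD4#1) and 4029 (shCHD4#2) of all genes. The shares over all genes thus come from smaller numbers, where ties and 1.5-fold steps arise more easily. They were not matched for region number. At a fold of 1.5 none of the 10 stood out with shCHD4#1 (34.6% of genes were that much higher and 3.18% that much lower), while LATS1, STK3 and TEAD3 were at least that much lower with shCHD4#2, against 14.2% of genes, and none was that much higher (12.2%). The direction at single genes depended on which regions were counted. With lists of equal length, TEAD1 and TEAD4 still had more with both, against 25.0% of all genes, and 7 genes had fewer, against 27.0%. With the p limit, YAP1 (1, 1 and 0 regions with shCHD4#1, shCHD4#2 and shScramble), WWTR1 (3, 3 and 1) and NF2 (4, 4 and 3) had more with both, against 20.6%. TEAD2 (4, 4 and 6) and TEAD4 (2, 1 and 3) had fewer, against 9.39%. These numbers are small, and the YAP1 region is in all 3 lists, with an authors' p of 0.0578 in shScramble. The fold of 1.5 with shCHD4#2 was still reached by LATS1 and STK3 but not by TEAD3 (13 regions with shCHD4#2 and 14 with shScramble) with lists of equal length, against 13.1% of genes. With the p limit it was reached by TEAD4 alone, against 14.5%; LATS1 then had 4 regions with shCHD4#2 and 1 with shScramble, and STK3 and TEAD3 had equal numbers.

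**Figure D1:**
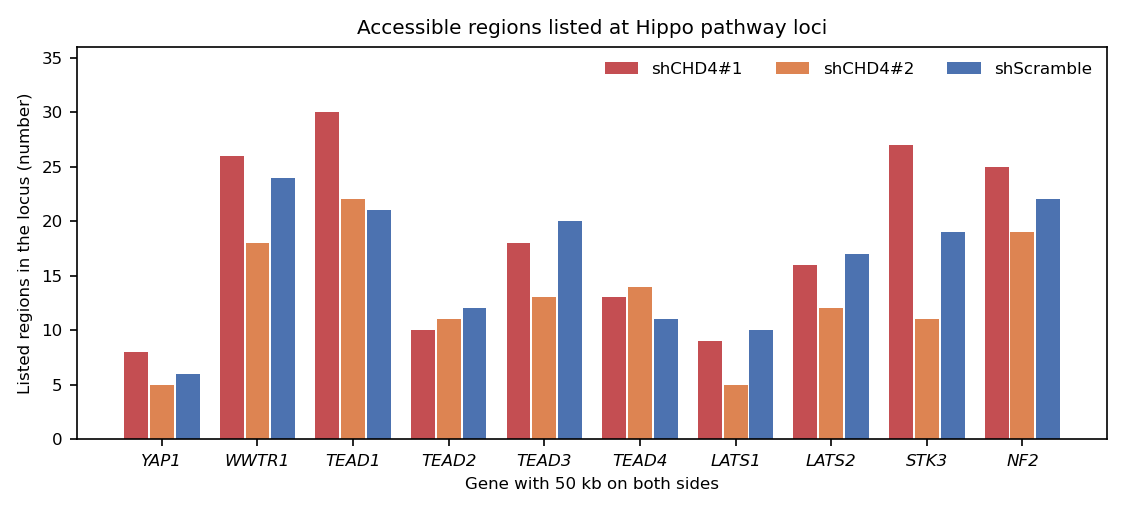
Number of listed regions (vertical axis) in each of the 10 loci for shCHD4#1, shCHD4#2 and shScramble; each bar is 1 list, so there are no error bars. TEAD1 has 30, 22 and 21 regions, and STK3 27, 11 and 19.

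**Figure D2:**
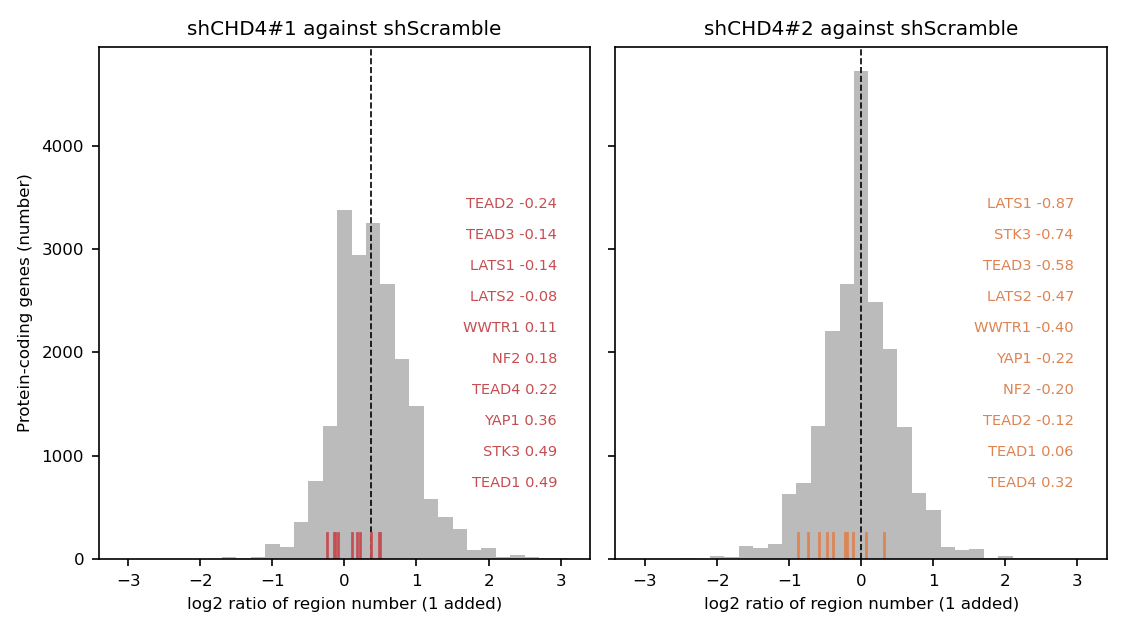
Histograms of the log2 ratio of region number (1 added) over 19970 protein-coding genes for each hairpin against shScramble; coloured ticks mark the 10 Hippo genes, whose values are printed, and dashed lines the medians of all genes (0.36 and 0). With shCHD4#2, 8 of the 10 ticks lie below 0.

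Joining overlapping regions across the 3 lists gave 130417 merged regions, 197 of them at the 10 loci. A merged region present in both knockdown lists but absent from shScramble is called gained with both. One present in shScramble alone is called lost with both. Of the 197, 81 were in all 3 lists (41.1%, 95% Wilson interval 34.5 to 48.1), against 33.0% of all merged regions and 34.9% of those within 50 kb of any protein-coding gene. There were 16 gained with both (8.12%, 5.06 to 12.8), against 10.1% of all and 10.1% of those near genes, and 19 lost with both (9.64%, 6.26 to 14.6), against 10.6% and 10.3%. Both shares were near the background. The share lost with both was 15.4% with lists of equal length, 16.7% under the p limit and 18.2% with regions named primary, against 16.6%, 12.4% and 12.4% of all merged regions in the same settings. Regions named primary are those with an authors' p up to about 0.16, so this setting and the p limit are nested and not independent. A further 43 were listed with shCHD4#1 alone (21.8%, 16.6 to 28.1), against 29.1% and 27.4%, and 6 with shCHD4#2 alone (3.05%, 1.40 to 6.48), against 5.46% and 5.66%. Regions missing with shCHD4#1 alone numbered 11 (5.58%, 3.15 to 9.72), against 2.71% and 2.86%, and those missing with shCHD4#2 alone 21 (10.7%, 7.08 to 15.7), against 9.14% and 8.83%. The share missing with shCHD4#1 alone had an interval wholly above its background, the share in all 3 lists had one above 33.0% but not 34.9%, and the share with shCHD4#1 alone had one below 29.1% but not 27.4%. These intervals reflect counting error alone and assume that adjacent regions are independent. All 7 patterns were set beside their backgrounds without allowance for that number, and no test was made. Of the 11 regions missing with shCHD4#1 alone, TEAD1 and NF2 held 3 each.

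**Figure D3:**
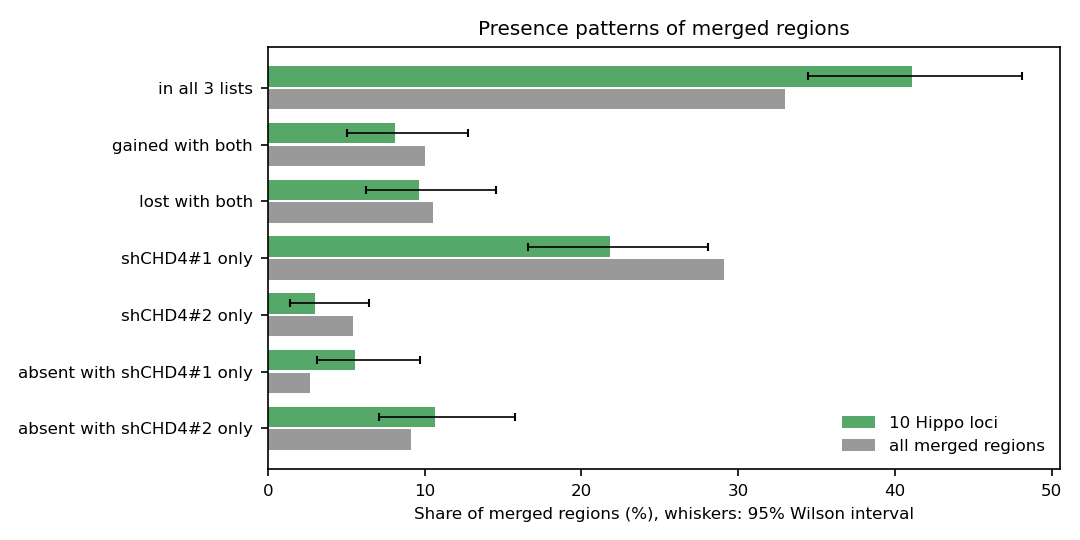
Share of merged regions (horizontal axis, %) with each of 7 presence patterns at the 10 Hippo loci (197 regions, green) and over all 130417 merged regions (grey); whiskers are 95% Wilson intervals. Gained with both was 8.12% at the loci and 10.1% over all, and lost with both 9.64% and 10.6%.

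Some gained and lost regions at these loci lay close to a region of the list they were missing from. Of the 16 gained with both, 8 were within 1 kb of a shScramble region (median 1405 bp), and of the 19 lost with both, 8 were within 1 kb of a region of at least 1 knockdown list (median 1830 bp to the nearer list) and 5 within 1 kb of regions of both. None of the 16 had an authors' p of at most 0.05 in either knockdown list, and 1 of the 19 had one in shScramble. These distances and limits were not counted over all gained and lost regions, so they are not read as a trait of these loci. Each list is ordered by the authors' p, and places in lists of different length show no change between groups. For each merged region the best-ranked of its listed regions was taken. In the median, merged regions in all 3 lists stood at the 23.1% point of the shCHD4#1 list, the 26.0% point of the shCHD4#2 list and the 24.1% point of the shScramble list, counted from the best. Regions gained with both stood at the 41.3% and 62.4% points of the knockdown lists, and regions lost with both at the 63.1% point of the shScramble list. The merged regions in all 3 lists were also wider, with a median of 2320 bp against 1780 bp (gained) and 1320 bp (lost). A wider one can hold more listed regions, which by itself favours a better rank. These ranks were not compared with those of all merged regions. Of the 162 shScramble regions at the loci, 80.2% (73.4 to 85.6) overlapped a shCHD4#1 region and 69.8% (62.3 to 76.3) a shCHD4#2 region, against 77.2% and 64.2% over the whole list. At 50 places with exactly 1 region per list, the median width was 1550 bp with shCHD4#1, 1075 bp with shCHD4#2 and 1475 bp with shScramble, and the shCHD4#2 region was narrower than the control region at 42 of them (84%). At all 23286 such places the medians were 1480, 1100 and 1510 bp, and the shCHD4#2 region was narrower at 75.8%.

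**Figure D4:**
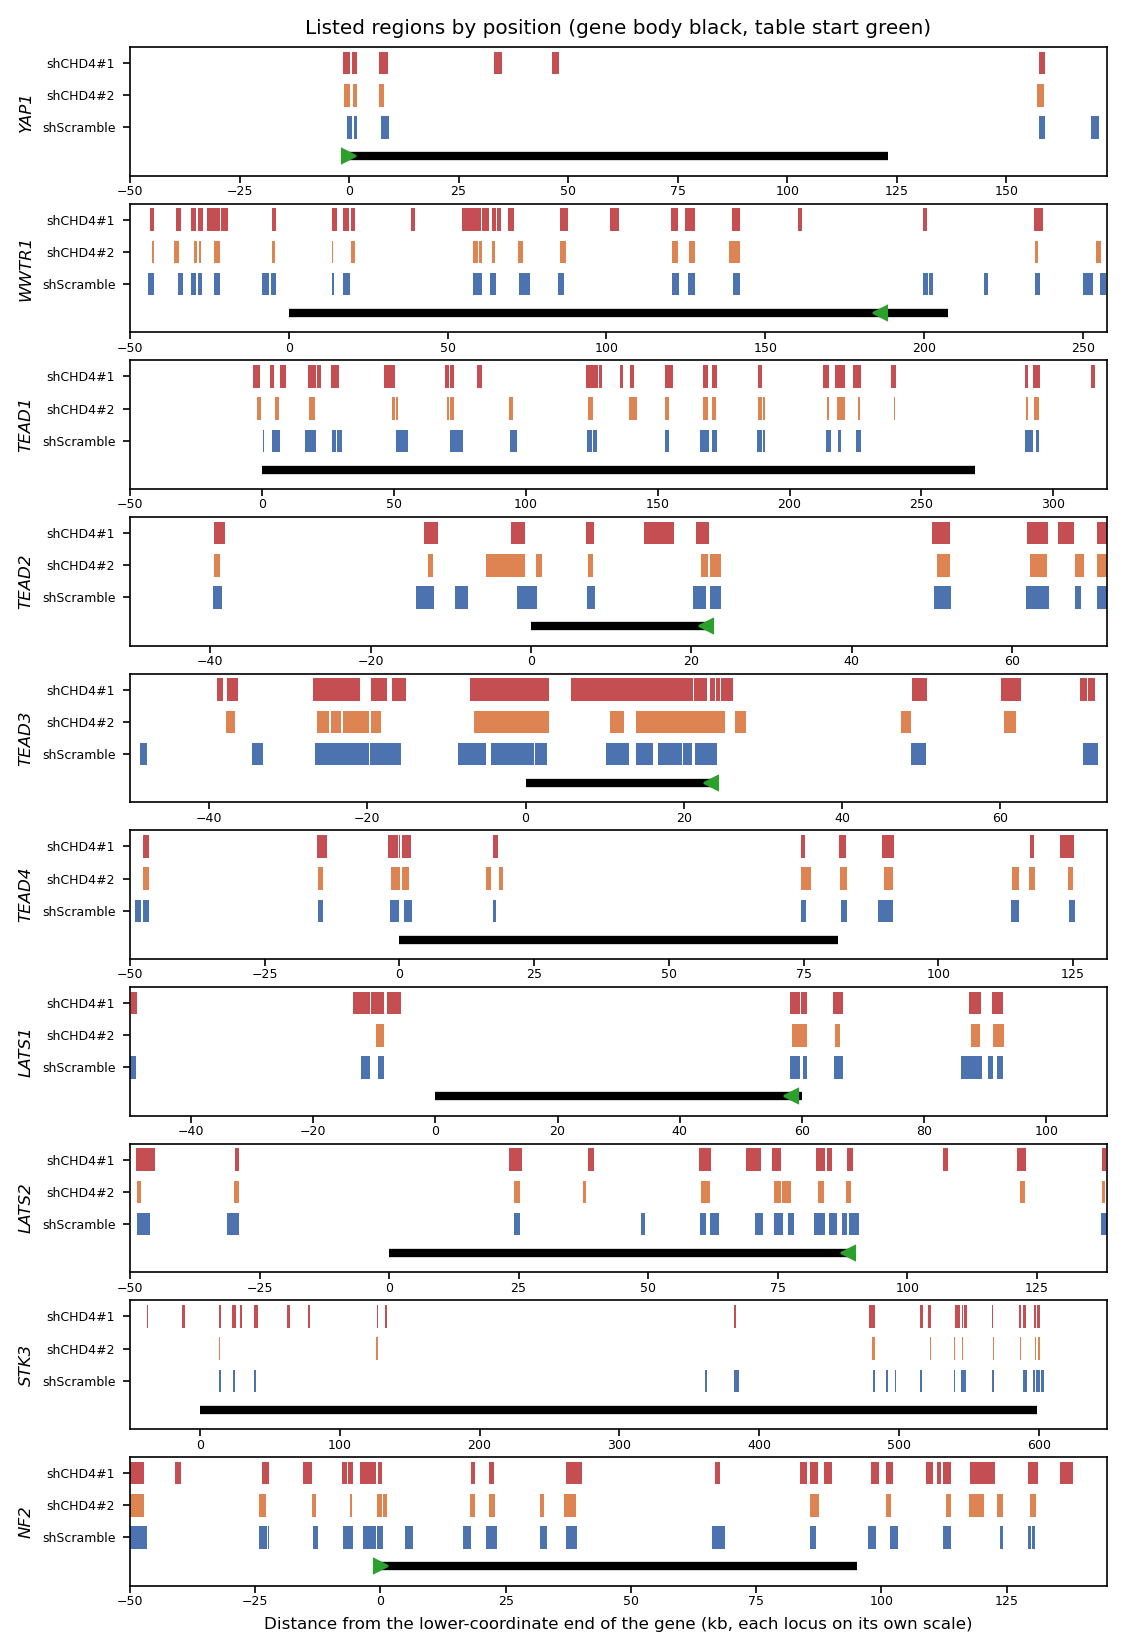
Listed regions along each locus in kb from the lower-coordinate end of the gene, 1 row per list (shCHD4#1, shCHD4#2, shScramble); the black bar is the gene and the green arrow the start and direction where the table gives one. Every list has regions at the starts of YAP1, LATS1, LATS2 and NF2, while a 228 kb stretch of STK3 has none.

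YAP1, the coactivator that LATS kinases restrain (GeneID 10413, chromosome 11, 102110447 to 102233424), had 8 regions with shCHD4#1, 5 with shCHD4#2 and 6 with shScramble, or 3.59, 2.24 and 2.69 per 100 kb, the lowest density of the 10 with shCHD4#1 and shScramble. Its 8 merged regions held 4 that were in all 3 lists, at chr11:102109081-102111160, chr11:102111211-102112350, chr11:102117201-102119520 and chr11:102267551-102269360. The first of these covers the start and the second begins 764 bp past it, and the last lies 34127 bp beyond the gene and was the best-ranked of the locus in every list. The region over the start ranked low, at the 51.7% point with shCHD4#1, the 58.3% point with shCHD4#2 and the 92.5% point with shScramble. Regions at chr11:102143631-102144590, chr11:102144591-102145350 and chr11:102156841-102158450 were listed with shCHD4#1 alone, all in the gene body. The region at chr11:102279661-102281640, beyond the gene, was lost with both, and none was gained with both.

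WWTR1, which encodes TAZ (GeneID 25937, chromosome 3, 149517235 to 149724788), had 26, 18 and 24 regions with shCHD4#1, shCHD4#2 and shScramble. No region lay within 1 kb of its table start or of its upper gene end in any list. Inside the gene, regions in all 3 lists were at chr3:149530681-149532340, chr3:149574991-149580290, chr3:149580481-149582500, chr3:149601871-149605120, chr3:149637681-149639950, chr3:149641881-149645130 and chr3:149655861-149659330. The last of these, 43943 bp past the table start, held the best-ranked region of the locus with shCHD4#2 (number 597, authors' p 3.71e-05); its best region had an authors' p of 0.00251 with shCHD4#1 and 0.109 with shScramble. This was the place of the only WWTR1 region inside the gene with an authors' q of at most 0.05, in the shCHD4#2 list. Outside the gene, regions in all 3 lists at chr3:149472891-149474900, chr3:149481021-149484020, chr3:149486321-149488370, chr3:149488501-149490170 and chr3:149493691-149495690 overlapped TM4SF4, a neighbouring gene of a tetraspanin-like protein, chr3:149511511-149513240 lay between the genes, and chr3:149751861-149754520 lay at an end of COMMD2 and was the best-ranked of the locus with shCHD4#1 (number 1687) and with shScramble (number 7645).

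Only 1 WWTR1 region was gained with both, chr3:149536821-149538050 in the gene body, 380 bp from a shScramble region. Those lost with both were chr3:149508781-149511120, chr3:149591361-149593060, chr3:149718721-149720040, chr3:149736071-149737430 and chr3:149767351-149770460, of which 2 lie in the gene. With shCHD4#1 alone, chr3:149491571-149493590 and chr3:149496041-149497940 were listed below the gene and chr3:149555681-149557030, chr3:149571901-149574840, chr3:149582671-149584160, chr3:149586321-149588030, chr3:149618221-149621160 and chr3:149677391-149678760 inside it. Missing with shCHD4#1 alone were chr3:149589311-149591360 and chr3:149771321-149774320, and missing with shCHD4#2 alone chr3:149534211-149536440 and chr3:149716831-149718360. Of the 32 merged regions at WWTR1, 8 were listed with shCHD4#1 alone, 0 with shCHD4#2 alone and 5 with shScramble alone. Over all merged regions these shares were 29.1%, 5.46% and 10.6%.

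TEAD1, a broadly expressed TEAD factor (GeneID 7003, chromosome 11, 12674421 to 12944737), had 30, 22 and 21 regions with shCHD4#1, shCHD4#2 and shScramble, the largest number of the 10 in both knockdown lists. No other protein-coding gene had the same 3 numbers. Regions in all 3 lists were at chr11:12677481-12681240, chr11:12690631-12694940, chr11:12745641-12750580, chr11:12797161-12801910, chr11:12827021-12830220, chr11:12840571-12843940, chr11:12844991-12847000, chr11:12862111-12864100, chr11:12887121-12890090, chr11:12891721-12895510, chr11:12898431-12901600 and chr11:12963471-12969270. The one at 12745641 was the best-ranked of the locus in each list, at number 2040, 1886 and 1172. All but the last of these, which lies 18734 bp beyond the gene, were inside it. TEAD1 also had the most regions gained with both, 5 of the 16: chr11:12671001-12674010, chr11:12722981-12725000, chr11:12743991-12745450, chr11:12813701-12816690 and chr11:12912921-12914840. The first 3 of them were 660, 280 and 190 bp from a shScramble region and the other 2 were over 10 kb from any (10390 and 11380 bp).

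At the lower end of TEAD1 the lists held different regions. The gained region ends 411 bp below the gene, and the only region lost with both, chr11:12674671-12675320, lies just inside it, 660 bp further on. The gained region stood at the 46.0% point with shCHD4#1 and the 21.7% point with shCHD4#2 and the lost one at the 19.3% point with shScramble, so this end was covered within 1 kb in every list. With shCHD4#1 alone, regions were listed at chr11:12681401-12683590, chr11:12695281-12696830, chr11:12720741-12722870, chr11:12756031-12757040, chr11:12757041-12757760, chr11:12802031-12803310, chr11:12810001-12811170 and chr11:12988821-12990310. Missing with shCHD4#1 alone were chr11:12725281-12729820, chr11:12768161-12771130 and chr11:12864171-12865250, and chr11:12700791-12704960 was missing with shCHD4#2 alone. No other protein-coding gene lies in this locus.

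TEAD2 (GeneID 8463, chromosome 19, 49340595 to 49362416), known for expression in early development, had 10, 11 and 12 regions with shCHD4#1, shCHD4#2 and shScramble. Just above its start the lists differed at a well-ranked region. chr19:49362861-49364330, 445 bp before the start and overlapping the neighbouring gene DKKL1, was number 900 with shCHD4#2 (authors' p 0.000118, q 0.0276) and number 951 with shScramble (p 0.000148, q 0.0309), and no region of the shCHD4#1 list overlapped it. The nearest shCHD4#1 region lay next to it, in the merged region over the start itself, chr19:49360841-49362760, which was in all 3 lists at low rank (authors' p 0.657, 0.781 and 0.951; the shScramble region there ends just short of the start base). Elsewhere, regions in all 3 lists were at chr19:49301001-49302500, chr19:49326281-49328990, chr19:49334981-49341910 and chr19:49347451-49348520 and, above the gene in KASH5, at chr19:49390621-49392910, chr19:49402301-49405150 and chr19:49411161-49414680. The region at 49402301 was the best-ranked of the locus with shCHD4#1. The only region lost with both was chr19:49331161-49332800 in SLC6A16, none was gained with both, chr19:49354711-49358390 and chr19:49406351-49408240 were listed with shCHD4#1 alone, and chr19:49408371-49409520 was also missing with shCHD4#1 alone.

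TEAD3 (GeneID 7005, chromosome 6, 35473597 to 35497079), a TEAD factor noted in placenta, had 18, 13 and 20 regions with shCHD4#1, shCHD4#2 and shScramble. Its locus was the most densely covered of the 10, with 38.5%, 28.3% and 31.9% of bases in listed regions. Most of them formed 4 broad merged regions in all 3 lists, at chr6:35446681-35453850, chr6:35453871-35458500, chr6:35465001-35476570 and chr6:35482721-35499800. The last one spans the start and held 6, 2 and 7 regions of the 3 lists, and the third touches ends of FANCE and RPL10A. The regions in the last one covered 16300, 13010 and 11910 bp with shCHD4#1, shCHD4#2 and shScramble. There shCHD4#2 thus had fewer regions than shScramble but more covered bases, with 1 region of 11180 bp. Gained with both were chr6:35435711-35437200 and chr6:35533701-35536180, and lost with both chr6:35424881-35425780 and chr6:35439031-35440350, all outside the gene. With shCHD4#1 alone chr6:35434591-35435350 and chr6:35479351-35482690 were listed, and with shCHD4#2 alone chr6:35500011-35501500 and chr6:35520991-35522260. chr6:35522291-35524280 and chr6:35543651-35545970 were missing with shCHD4#2 alone. The first of these held the best-ranked region of the locus with shCHD4#1, at the 13.3% point.

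TEAD4 (GeneID 7004, chromosome 12, 2959397 to 3040676), the factor of the trophectoderm of the early embryo, had 13, 14 and 11 regions with shCHD4#1, shCHD4#2 and shScramble, and the bases covered were nearly equal (8.25%, 8.24% and 8.22% of the locus). Regions in all 3 lists were at chr12:2911761-2912950, chr12:2944091-2945220, chr12:2957351-2959280, chr12:2959791-2961650, chr12:3033841-3035730, chr12:3040951-3042460, chr12:3048251-3051070 and chr12:3083331-3084730. Both gene ends had a region within 1 kb in every list. At the lower end a region of 190 bp, chr12:2959281-2959470, was counted as gained with both although a shScramble region directly adjoins it. The second gain, chr12:3076231-3077300, stood at the 15.8% point with shCHD4#1 and the 22.9% point with shCHD4#2 and lay within 1 kb of an end of TSPAN9, another tetraspanin gene. Lost with both was chr12:2910261-2911480, in TULP3. chr12:2945221-2946030 and chr12:3081871-3083210 were listed with shCHD4#1 alone and chr12:2975461-2976430 and chr12:2977791-2978670 with shCHD4#2 alone. chr12:3072781-3074440 was missing with shCHD4#1 alone and chr12:2976661-2977630 with shCHD4#2 alone.

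STK3, which encodes the kinase MST2 at the head of the cascade (GeneID 6788, chromosome 8, 98343975 to 98942610), had 27 regions with shCHD4#1, 11 with shCHD4#2 and 19 with shScramble, the widest spread between the hairpins among the 10. It is the longest of the genes and had the lowest density of the 10 with shCHD4#2, at 3.87, 1.57 and 2.72 regions per 100 kb. Between 98477591 and 98705270, a stretch of 228 kb inside the gene, no list held a region. Regions in all 3 lists were at chr8:98357471-98359240, chr8:98822761-98825870, chr8:98825871-98826790, chr8:98882931-98887150, chr8:98887911-98892380, chr8:98910151-98911900 and chr8:98941761-98944770. The one starting at 98825871 was the best-ranked in each list, at number 2491, 2083 and 6062. The last covers the upper gene end and overlaps the neighbours OSR2 and LOC112268016; no list had a region within 1 kb of the lower end.

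Gained with both at STK3 were chr8:98470071-98471360, chr8:98864391-98866770, chr8:98929381-98931450 and chr8:98941141-98941670. The first of these was the most isolated gain of all loci, 85820 bp from the nearest shScramble region, and the last was 90 bp from one. Lost with both were chr8:98705271-98706320, chr8:98834641-98835730, chr8:98840841-98841650, chr8:98945161-98946400 and chr8:98946401-98947610; the last 2 lie beyond the gene in OSR2 and the first 3 inside STK3. The remaining STK3 regions were all absent from the shCHD4#2 list. With shCHD4#1 alone, chr8:98306221-98306840, chr8:98331141-98332010 and chr8:98332011-98333280 were listed below the gene and chr8:98368881-98370040, chr8:98372561-98373840, chr8:98406321-98408390, chr8:98421321-98422350 and chr8:98476211-98477590 in its body, and chr8:98367141-98368820, chr8:98382791-98385630, chr8:98725661-98729190, chr8:98858821-98861120, chr8:98932431-98935380 and chr8:98939481-98941140 were missing with shCHD4#2 alone. No STK3 region was listed with shCHD4#2 alone or missing with shCHD4#1 alone.

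LATS1, a kinase that phosphorylates YAP and TAZ (GeneID 9113, chromosome 6, 149658153 to 149718101), had 9, 5 and 10 regions with shCHD4#1, shCHD4#2 and shScramble. It had the lowest mean log2 ratio of the 10 (-0.14 with shCHD4#1 and -0.87 with shCHD4#2). Of its 8 merged regions, 5 were in all 3 lists, at chr6:149647691-149649760, chr6:149716211-149719020, chr6:149723181-149724870, chr6:149744171-149747680 and chr6:149748681-149751290, so the lower number with shCHD4#2 includes 3 places where it listed 1 region and shScramble 2. The second covers the table start, and its best regions stood at the 34.7%, 7.64% and 53.5% points. The start base itself lay in a region with shCHD4#1 (p 0.949) and shScramble (p 0.643), and the shCHD4#2 region (p 0.0139) begins just beside it. The last 3 lie in or at NUP43 and PCMT1, and the first at an end of KATNA1. chr6:149607221-149609230 and chr6:149644671-149647510 were missing with shCHD4#2 alone and chr6:149650291-149652450 was listed with shCHD4#1 alone, all outside the gene. No region was gained or lost with both. The same 3 numbers were found at 7 other protein-coding genes, of which DDX50, GTF3C1 and DEPDC5 are nearest in locus length.

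LATS2, the second LATS kinase (GeneID 26524, chromosome 13, 20973036 to 21061586), had 16, 12 and 17 regions with shCHD4#1, shCHD4#2 and shScramble and has no protein-coding neighbour within 50 kb. Regions in all 3 lists were at chr13:20924261-20925700, chr13:20943091-20944100, chr13:20996161-20998650, chr13:21032931-21036720, chr13:21046981-21051110, chr13:21054961-21057200, chr13:21060471-21063770 and chr13:21110381-21111750. The one at 21060471 covers the start. With shCHD4#2 a single region of 800 bp there was the best-ranked of the locus (21061311 to 21062110, number 10205, p 0.0424), with shCHD4#1 a region of 1170 bp stood at the 15.6% point (p 0.0845), and with shScramble 2 regions of 990 and 1990 bp lay on either side of the start base (p 0.180 and 0.547). The promoter of LATS2 shown earlier, with its GGAATG 9 bases after the start, lies in this merged region. Gained with both was chr13:21094221-21095860, 32635 bp before the start and 14520 bp from any shScramble region. Lost with both were chr13:20941721-20943070 and chr13:21021741-21022400. chr13:21011451-21012670 and chr13:21079991-21080980 were listed with shCHD4#1 alone and chr13:21010431-21011100 with shCHD4#2 alone, and chr13:20925751-20927910, chr13:21041891-21045260 and chr13:21057531-21059560 were missing with shCHD4#2 alone.

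NF2, which encodes merlin (GeneID 4771, chromosome 22, 29603556 to 29698600), had 25, 19 and 22 regions with shCHD4#1, shCHD4#2 and shScramble. Its start carried the best-ranked region of all 10 loci in every list: chr22:29602811-29603980 was number 627 with shCHD4#1 (p 2.00e-05), 552 with shCHD4#2 (p 2.99e-05) and 435 with shScramble (p 2.05e-05), each with a q of at most 0.05. Other regions in all 3 lists were at chr22:29552631-29557010, chr22:29579381-29581400 and chr22:29597061-29598020 below the gene, chr22:29620131-29622510, chr22:29624621-29626790, chr22:29640261-29643860 and chr22:29689211-29691180 in it and chr22:29704431-29706810, chr22:29715951-29717540 and chr22:29732771-29734860 above it. The first of these lies at NIPSNAP1 and THOC5. Gained with both was chr22:29721151-29726200, in CABP7, and lost with both was chr22:29608541-29610140, 4908 bp past the start. NF2 thus had 1 region of each kind.

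The other NF2 regions belonged to single lists or were missing from 1. With shCHD4#1 alone, chr22:29562561-29563690, chr22:29588011-29589840, chr22:29687311-29688680, chr22:29692101-29693770, chr22:29712461-29713960, chr22:29714691-29715550 and chr22:29739171-29741890 were listed, and with shCHD4#2 alone chr22:29603981-29604950, 348 bp past the start. Missing with shCHD4#1 alone were chr22:29589991-29591090, chr22:29635371-29636730 and chr22:29726591-29727780. Missing with shCHD4#2 alone were chr22:29595891-29597060, chr22:29599511-29602750, chr22:29669651-29672360 and chr22:29700891-29703130. The first of the regions listed with shCHD4#1 alone overlaps NIPSNAP1, and the last overlaps ZMAT5.

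Gene starts were largely covered in every list. A region lay within 1 kb of the start of 6 of the 7 genes with a table start in all 3 lists, WWTR1 being the exception, against 54.3% of 15812 protein-coding genes with a start. TEAD1, TEAD4 and STK3 have no start in the table, and each had a region within 1 kb of at least 1 gene end in all 3 lists, against 49.4% of 4158 genes without a start. With an authors' p of at most 0.05, the starts covered were 1 of 7 with shCHD4#1, 4 with shCHD4#2 and 2 with shScramble, against 26.2%, 29.0% and 21.7% of genes. By position, 104 of the 197 merged regions lay in the genes away from a table start, 10 at a start, 11 in a flank at an end of another gene and 72 elsewhere in a flank. Of the 16 gained with both, 10 lay in the genes away from a start, and of the 19 lost with both, 8 did; none of either kind lay at a table start, while gains at TEAD1, TEAD4 and STK3 and a loss at TEAD1 lay at a gene end. Regions in the flanks of WWTR1, TEAD2, TEAD3, LATS1 and NF2 often overlapped neighbouring genes.

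Over the 10 loci, 21 regions had an authors' p of at most 0.05 with shCHD4#1, 25 with shCHD4#2 and 23 with shScramble, which is 11.5%, 19.2% and 14.2% of those listed there, against 12.0%, 13.2% and 12.6% over the whole lists. An authors' q of at most 0.05 was reached by 2, 3 and 4 regions there, against 1803 of 122456, 1369 of 82824 and 1313 of 85359 over the whole lists. They lay at NF2 in all lists, at TEAD2 with shCHD4#2 and shScramble, and at TEAD1 with shScramble. WWTR1 had 1 with each hairpin, at different places. With shCHD4#1 it lay beyond the gene at an end of COMMD2 (q 0.0453), and with shCHD4#2 inside the gene (q 0.0136).

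**Figure D5:**
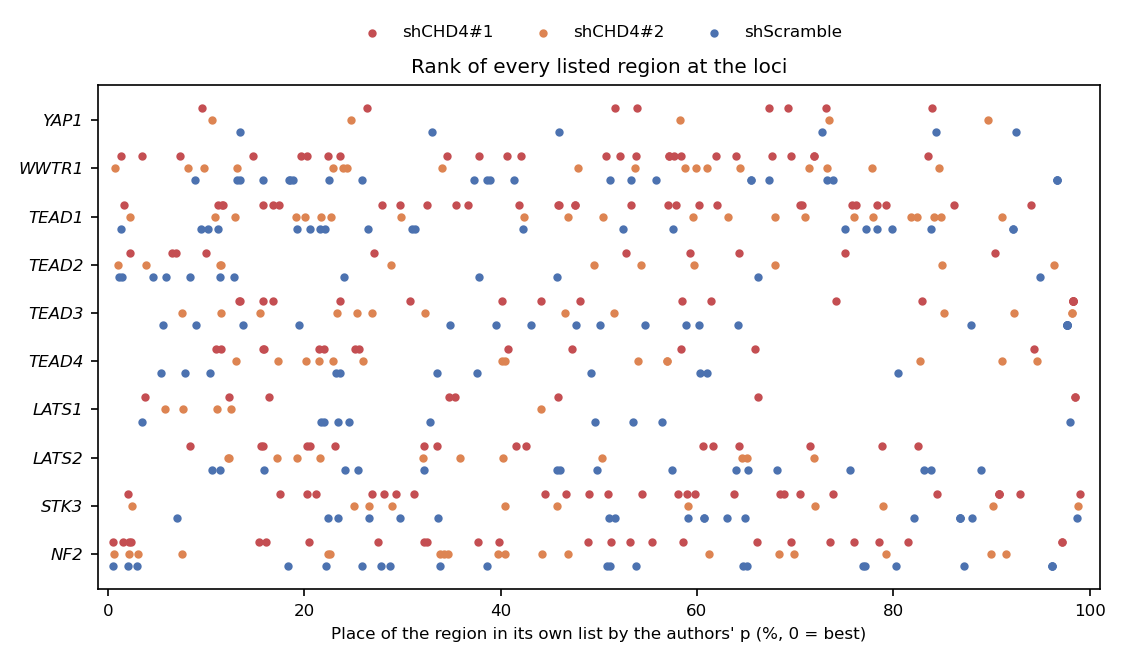
Place of every listed region of the 10 loci in its own list by the authors' p (horizontal axis, %, 0 being the best), in 3 lines per gene for shCHD4#1, shCHD4#2 and shScramble. The best-placed regions are those of NF2 at the 0.510%, 0.663% and 0.507% points, and no YAP1 region is placed better than the 9.61% point.

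A list of 34 other Hippo pathway genes and a list of 22 reported YAP and TAZ target genes were counted in the same windows. Both were written with earlier results of these data known. Of the 34 pathway genes, 10 had more regions in both knockdown lists (29.4%) and 3 had fewer (8.82%), and the median log2 ratio was 0.24 with shCHD4#1 and -0.14 with shCHD4#2. Among the largest mean log2 ratios were those of FAT1, an atypical cadherin (2 regions with shCHD4#1, 1 with shCHD4#2 and 0 with shScramble), RASSF1, a scaffold that binds MST kinases (33, 19 and 18), and SLMAP, an adaptor that restrains MST kinases (6, 3 and 3). The 2 smallest were at AMOT, which encodes the YAP-binding angiomotin (4, 2 and 7), and STK4, which encodes MST1 (8, 2 and 8). STK3, the MST2 gene, also had its lowest number with shCHD4#2. STK4 was named for its small ratio, and 41.6% of all genes had fewer regions with shCHD4#2 than with shScramble. No trait shared by STK3 and STK4 is therefore read from these numbers. The counts of 10 and 3 of the 34 stand beside 35.3% and 12.0% of all genes. With lists of equal length, 15 of the 34 had fewer regions with both hairpins, against 27.0% of all genes.

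Of the 22 target genes, 6 had more regions in both knockdown lists (27.3%), 6 had fewer (27.3%) and 10 neither, against 35.3% and 12.0% of all genes, with a median log2 ratio of 0.21 with shCHD4#1 and -0.04 with shCHD4#2. LATS2 is also in this list. The largest mean log2 ratios were at FJX1, a homologue of the fly gene four-jointed (8, 9 and 4 regions with shCHD4#1, shCHD4#2 and shScramble), AXL, a receptor tyrosine kinase (11, 11 and 6), FOXF2, a forkhead factor of mesenchyme (11, 6 and 5), and CCN2, the matricellular growth factor CTGF (11, 8 and 6). The smallest were at CCN1, its relative CYR61 (9, 6 and 10), and MYOF, which encodes myoferlin (10, 11 and 14). The matricellular targets CCN1 and CCN2, much used readouts of YAP activity, are named here because they stand at opposite ends of this ranking. Their contrast reflects that choice, and no conclusion is drawn from it. Region numbers do not show expression, and no change in transcription was measured here.

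At the CHD4 locus itself 19, 17 and 16 regions were listed with shCHD4#1, shCHD4#2 and shScramble, a count that says nothing of how much CHD4 protein was left. Known targets of the fusion held regions in every list, with 3, 4 and 3 at NR0B1, 8, 9 and 14 at NKX2-2 and 17, 19 and 14 at CCND1. Of the lists used, 21.6%, 23.5% and 22.7% of regions carry the name primary and the rest secondary. In each list every primary region had a lower authors' p than every secondary one.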

How the data were processed

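Each group of ATAC-seq libraries came with 1 region list. The submitters' processing notes name deepTools 3.2.1, SAMtools 1.9, BWA, Trimmomatic 0.36 and FastQC 0.11.7, together with dm6 and GRCh38 as builds. The caller of the peaks is not given in the sources used here. Per the labels, Drosophila S2 cells were added to each sample; how the authors used them is not stated. The deposited lists carry the name of ChIP-R, which combines replicate peak lists. The score, the second value treated as a score, and the p-value and q-value of each region are the authors', and served only to rank or filter within a list. Regions run in order of that p-value. A longer list can come from deeper or more lenient calling, which nothing here corrects; depth per sample is unknown.

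Regions on chromosomes 1 to 22 and X were used, without those wider than 20 kb or with a negative value (413, 417 and 416 in the order shCHD4#1, shCHD4#2, shScramble; 0 of them at these loci). Overlap meant at least 1 bp. Genes, starts and promoters were those of RefSeq (GRCh38.p14); exons were not analysed here. Computation used Python 3.11.15, pandas 2.3.3, NumPy 2.4.6 and SciPy 1.17.1. Merging and counting were tested on simulated regions. The genes and lists were chosen with earlier results of these data known. Genes are named by a fixed rule: the 10 genes, and per list the 4 with the largest and the 2 with the smallest mean log2 ratio; 1 of these is not reported here. With 1 list per group no test between groups and no omission of a replicate was possible. The alternatives tried were limits on the authors' p and q, lists of equal length, other flanks, start windows and overlaps, and primary regions.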

Additional observations from a re-analysis of the deposited data

Results flagged for a closer look

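At 4 of the 10 genes the hairpins lay on opposite sides of shScramble in region number, more with shCHD4#1 and fewer with shCHD4#2, as at 23.0% of all protein-coding genes. The log2 ratio with shCHD4#1 exceeded that with shCHD4#2 by 1.22 at STK3 (0.49 and -0.74), by 0.58 at YAP1 (0.36 and -0.22), by 0.51 at WWTR1 (0.11 and -0.40) and by 0.38 at NF2 (0.18 and -0.20). These differences were not tested, since each group has 1 list. The shCHD4#1 list is the longest of the 3. With lists of equal length, both knockdown lists were below shScramble at YAP1, STK3 and NF2, and STK3 still had 17 regions with shCHD4#1 and 11 with shCHD4#2, against 18 with shScramble.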

How the results depend on the processing

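The share of regions gained with both hairpins (8.12%) stayed within its interval under every alternative tried other than an authors' q of at most 0.05 (0%, of 6 regions, against 13.0% of all merged regions). The share lost with both (9.64%) was 16.7% with an authors' p of at most 0.05, 33.3% with a q of at most 0.05 (2 of 6 regions), 15.4% with lists of equal length and 18.2% with regions named primary only. Over all merged regions in the same settings it was 12.4%, 12.8%, 16.6% and 12.4%. The log2 ratio of summed region number was -0.17 with lists of equal length and -1.0 with the q limit for shCHD4#1 (0.17 as reported, and -0.13 with the p limit). For shCHD4#2 it was 0.12 with the p limit (-0.32 as reported). The value of -1.0 is 2 regions against 4. As plain ratios to shScramble, the whole lists gave 1.37 for shCHD4#1 with the q limit. With the p limit they gave 1.36 (shCHD4#1) and 1.02 (shCHD4#2). Gene starts covered, either gene end counting for the genes without a start, numbered 9 of 10 per list. With the p limit they were 2 (shCHD4#1), 5 (shCHD4#2) and 3 (shScramble), with the q limit 1, 2 and 2, and with primary regions 3 (shCHD4#1), 6 (shCHD4#2) and 5 (shScramble). Of all genes with a start, 5.60%, 5.91% and 5.27% were covered with the q limit and 36.1%, 39.0% and 29.4% with primary regions. Of all genes without one, 4.23%, 4.35% and 3.87% were covered at either end with the q limit, and 31.1%, 31.7% and 25.0% with primary regions. With the p limit the latter shares were 21.3%, 22.2% and 17.5%. The median region number per locus (17, 12.5 and 18) was 1.5, 2.5 and 2 with the p limit, 0, 0 and 0 with the q limit and 4, 4.5 and 3.5 with primary regions. Pathway genes with more regions with both (10) numbered 5 with the p limit, 0 with the q limit and 6 over gene bodies, and those with fewer (3) numbered 15 with lists of equal length and 6 with 5 kb flanks. Target genes with more (6) numbered 1, 2 and 3 with the p limit, the q limit and lists of equal length, and those with fewer (6) numbered 1 with the q limit and 10 with lists of equal length. Over all genes, more and fewer with both came to 20.6% and 9.39% with the p limit, 4.13% and 3.33% with the q limit, 25.0% and 27.0% with lists of equal length, 25.2% and 13.0% with 5 kb flanks and 21.5% and 10.9% over gene bodies. Keeping all regions changed none of the results compared, and covered bases gave 0.26 and -0.58 as log2 ratios. Primary regions and joining of regions up to 1 kb apart were chosen after seeing the data. No paired analysis was possible because each group has 1 list, filed under replicate 1, so the groups share fewer than 2 replicate numbers.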
